A study of Homo sapiens with 2 samples.

Results

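The genes described here encode the subunits of the 5 enzyme complexes of oxidative phosphorylation. They were chosen by symbol alone: protein-coding genes whose names begin NDUFA, NDUFB, NDUFC, NDUFS or NDUFV (complex I), UQCR (complex III), COX4 to COX8 (complex IV), or ATP5F1, ATP5M or ATP5P (complex V), with SDHA, SDHB, SDHC and SDHD (complex II) and CYC1 (complex III). This rule found 96 of the 20037 protein-coding genes of the nuclear chromosomes in the RefSeq annotation of GRCh38.p14, whose chromosome coordinates are those of hg38. Of the 96, 38 belong to complex I, 4 to complex II, 10 to complex III, 17 to complex IV and 19 to complex V. The other 8 carry NDUFAF symbols and are assembly factors that help to build complex I without being part of it. Among those counted in complexes I and V, 2 (NDUFC2-KCTD14 and ATP5MF-PTCD1) are readthrough genes that begin where NDUFC2 and ATP5MF begin, so each pair shares its peaks.

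Both samples are F36P cells, a long-established line from a human erythroid leukaemia. They were profiled by chromatin immunoprecipitation of H3K27ac, the acetylation of lysine 27 on histone H3 that is found at active promoters and enhancers. The ERG cells, profiled in the ERG library, were transduced with the retroviral construct MSCV-PIG-AM-ERG, and their genotype is given as ERG overexpression; what AM stands for is not given in the labels. The Vector cells, profiled in the Vector library, were transduced with the empty MSCV-PIG vector, with the genotype given as WT. For both cultures puromycin selection (1 µg/ml) lasted 4 days, and both are bulk populations with 1 library each. ERG is a transcription factor of the ETS family, and the study asked how it holds back erythroid maturation.

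Complexes I and II take electrons from NADH and succinate and pass them to coenzyme Q. Complex III hands them to cytochrome c and complex IV hands them to oxygen, while complexes I, III and IV pump protons across the inner mitochondrial membrane. Complex V, the ATP synthase, lets the protons back and makes ATP. A few subunits are encoded in the mitochondrial genome, and the others in the nucleus. In erythroid cells these complexes stand beside haem and iron-sulphur cluster synthesis in the mitochondria, and the organelles are removed before the red cell is mature.

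Each file is a peak list, so a gene is described by the peaks within 1 kb of either end of its record. The ERG library listed 19671 peaks over 15.0 Mb and the Vector library 9161 peaks over 5.30 Mb. The number of DNA fragments piled up at each peak's summit was recovered from the deposited fold and −log10 p-value. The genome-wide background was 2.31 fragments in ERG cells and 1.60 in Vector cells, so the ERG library was taken as 1.44 times as deep. Fragment numbers below are not scaled by this depth, so a larger number in ERG cells need not be larger after scaling. The cell type on the label was checked against erythroid markers, of which 8 of 10 had gene-end peaks in both libraries, while ALAS2 had a gene-end peak in ERG cells alone and SLC4A1 had none in either. The summed covered length of these markers was 8374 bp in ERG cells and 5647 bp in Vector cells, but GATA1 (216 and 603 bp) and HBG2 (471 and 585 bp) were shorter in ERG cells. Of 5 myeloid markers, 1 was covered in both libraries and 2 in ERG cells alone, with 3316 bp in ERG cells and 902 bp in Vector cells. Of 4 lymphoid and 4 endothelial markers, 1 each (CD79A and PECAM1) was covered, in ERG cells alone. The part that the myeloid signal has in the results below was not tested. In a bulk population, a mark carried by fewer cells and a mark that is lower in every cell cannot be told apart. With 1 library per group there is no replicate error and no test was possible. Intervals of shares and of single-gene ratios below cover counting error only. Intervals of medians reflect spread across genes.

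Acetylated ends were found at most of these genes. In ERG cells 80 of 96 genes (83.3%, exact 95% binomial interval 74.4 to 90.2%) had a gene-end peak, against 45.8% of all protein-coding genes. In Vector cells 54 of 96 (56.2%, 45.7 to 66.4%) had a gene-end peak, against 30.5% of all protein-coding genes. Each gene with a Vector gene-end peak also had 1 in ERG cells. The genes thus fell into 54 with gene-end peaks in both libraries (30.2% of all genes have this pattern), 26 in ERG cells alone (15.6% of all genes) and 16 in neither (53.8% of all genes). No gene had a peak in Vector cells alone, which allows a share of up to 3.12% (0.354% of all genes have this pattern). Among the 86 cytosolic ribosomal protein genes, 94.2% had a gene-end peak in ERG cells and 77.9% in Vector cells. For the 77 mitochondrial ribosomal protein genes these shares were 92.2% and 53.2%.

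The 26 genes with a peak in ERG cells alone made up 32.5% (22.4 to 43.9%) of the 80 with an ERG peak. Among all protein-coding genes with an ERG peak the same share was 34.1%, inside that interval, so the share of these genes listed in ERG cells alone was close to the background. With the ERG library thinned to the depth of the Vector library, 25 of the 26 were still listed in ERG cells alone, and with a stronger thinning by 2.15, 24 were. The share in ERG cells alone was then 31.6%, beside 33.3% of all genes, and 30.8%, beside 30.7%. Thinning rescaled the fragments and background of listed ERG peaks and kept those whose −log10 p-value reached the lowest Vector value, 3.98. Peaks were not called again, so it cannot tell what a shallower ERG library would have listed. Counted instead over the 42 genes with no Vector peak, 26 (61.9%, 45.6 to 76.4%) had an ERG peak, against 22.5% of all genes without a Vector peak. Genes of the cytosolic ribosome, which are a similarly sized set of broadly used genes, had an ERG-alone share of 17.3% of 81 genes with an ERG peak. For mitochondrial ribosomal protein genes it was 42.3% of 71. The interval of the oxidative phosphorylation genes overlapped the intervals of both of these sets (9.78 to 27.3% and 30.6 to 54.6%). Counted over genes with no Vector peak, an ERG peak was present at 73.7% of 19 cytosolic ribosomal protein genes. For mitochondrial ribosomal protein genes this share was 83.3% of 36, so the 61.9% was not particular to the oxidative phosphorylation genes.

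Promoters of nuclear oxidative phosphorylation genes are known for binding sites of NRF1, of ETS factors such as the GABP complex, and of YY1. RefSeq promoter windows of 300 bases, 250 before to 50 after the gene start, were at hand for 77 of the 96 genes, and words for these factors were searched on both strands: GCATGCGC for NRF1, CCGGAAG for the ETS family and AAGATGGCG for YY1, with GGGCGG for SP and KLF factors and CCAAT for NF-Y beside them. Stretches of the 150 bases before the start are shown for genes of each class, from the RefSeq promoter table of GRCh38.p14, written 5′ to 3′ on the strand of the gene. Capitals mark the NRF1, ETS and YY1 words or their reverse complements. NDUFS7 (chr19:1383757-1383906, plus strand) and ATP5F1C (chr10:7788027-7788176, plus strand) had gene-end peaks in both libraries, and each has an NRF1 word.
NDUFS7: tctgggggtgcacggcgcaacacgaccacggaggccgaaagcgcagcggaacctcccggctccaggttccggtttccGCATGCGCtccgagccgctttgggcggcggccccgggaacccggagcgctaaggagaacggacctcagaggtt
ATP5F1C: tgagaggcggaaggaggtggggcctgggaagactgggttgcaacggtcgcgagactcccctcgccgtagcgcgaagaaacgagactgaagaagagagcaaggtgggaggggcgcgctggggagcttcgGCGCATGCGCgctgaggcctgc
COX5B (chr2:97645912-97646061, plus strand) and SDHB (chr1:17054033-17054182, minus strand) had a peak in ERG cells alone, and each has an ETS word in this stretch, with an NRF1 word in COX5B as well. The COX5B peak covers the stretch whole, and the SDHB peak reaches its last bases.
COX5B: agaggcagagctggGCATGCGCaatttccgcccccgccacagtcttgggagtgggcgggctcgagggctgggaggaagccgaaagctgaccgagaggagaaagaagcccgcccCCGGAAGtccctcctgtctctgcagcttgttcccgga
SDHB: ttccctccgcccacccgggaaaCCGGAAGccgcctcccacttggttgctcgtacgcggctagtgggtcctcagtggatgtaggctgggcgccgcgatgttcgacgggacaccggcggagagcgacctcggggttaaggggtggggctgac
NDUFB7 (chr19:14572067-14572216, minus strand) and COX6A2 (chr16:31428361-31428510, minus strand) had no peak in either library. The broadly used NDUFB7 has an ETS word, and the muscle isoform COX6A2 has none of the 3 words.
NDUFB7: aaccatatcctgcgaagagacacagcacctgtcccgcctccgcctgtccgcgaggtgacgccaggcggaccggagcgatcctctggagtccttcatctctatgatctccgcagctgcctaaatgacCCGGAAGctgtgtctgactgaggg
COX6A2: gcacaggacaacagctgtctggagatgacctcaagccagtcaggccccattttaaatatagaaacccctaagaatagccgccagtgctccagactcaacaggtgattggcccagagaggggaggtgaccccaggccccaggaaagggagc

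The NRF1 word was present in the window of 15 of the 77 genes (19.5%, 11.3 to 30.1%), beside 4.26% of all 15842 windows and 6.56% of the windows of the 5073 genes with a peak in both libraries. The ETS word was present in 21 (27.3%, 17.7 to 38.6%), beside 14.2% of all windows and 23.8% of windows of genes with a peak in both libraries. The YY1 word was present in 8 (10.4%, 4.59 to 19.4%), beside 2.74% and 5.56% in the same order. SP and KLF words were in 57.1% of these windows and NF-Y words in 35.1%, beside 58.5% and 36.4% of all windows and 72.1% and 37.6% of windows of genes with a peak in both libraries. Mitochondrial ribosomal protein genes, which also serve the mitochondria, had the NRF1 word in 8.70%, the ETS word in 42.0% and the YY1 word in 18.8% of 69 windows. The median GC content of the 77 windows was 61.0%, against 62.7% of all windows, and the median observed over expected CpG was 0.845, against 0.763. Hits of different words overlapped in 1 window, between an ETS and an SP/KLF word, and the NRF1 word can overlap its own reverse complement, as in ATP5F1C.

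**Figure D1:**
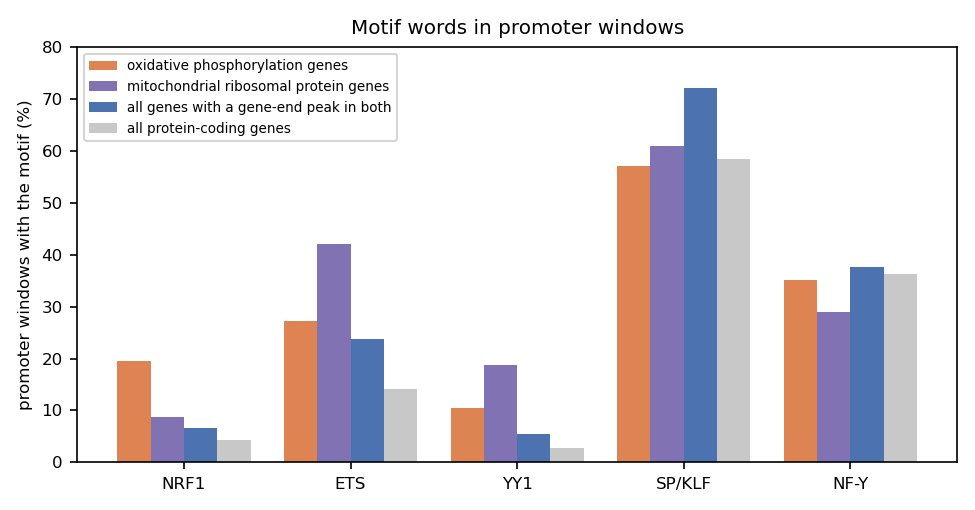
Share of 300-base promoter windows (vertical axis, percent) holding each word, for the 77 oxidative phosphorylation genes, mitochondrial ribosomal protein genes, all genes with a peak in both libraries and all protein-coding genes, in the order of the bars. The NRF1 word is in 19.5% of the oxidative phosphorylation windows and 4.26% of all windows, while the SP/KLF word is in 57.1% and 58.5% in the same order.

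The words were also counted by class of gene. The NRF1 word was in 10 of 45 windows of genes with a peak in both libraries, 4 of 20 in ERG cells alone and 1 of 12 in neither. The ETS word, the family to which ERG belongs, was in 12 of 45, 7 of 20 and 2 of 12 in the same order. The exact interval of the ETS share was 15.4 to 59.2% for the ERG-alone genes and 14.6 to 41.9% for the genes with peaks in both libraries, and these overlap. Over all protein-coding genes the ETS share was 22.9% in ERG cells alone and 23.8% in both libraries, inside these intervals. The NRF1 share over all protein-coding genes was 6.37% and 6.56% in the same order. Presence of a word does not show binding, and ERG binding was not measured in these libraries.

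**Figure D2:**
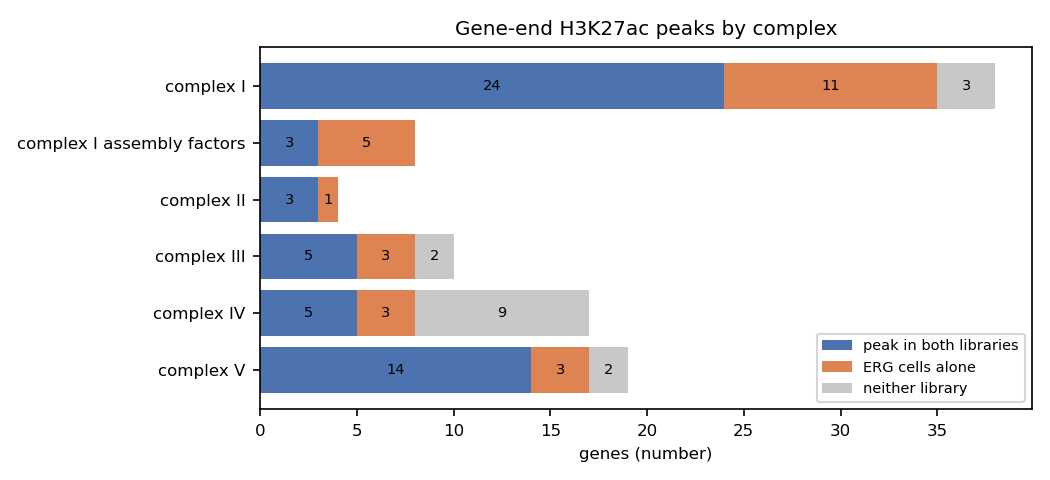
Number of genes of each complex whose ends carry a peak in both libraries, in ERG cells alone or in neither library. Complex V has peaks in both libraries at 14 of 19 genes and complex IV at 5 of 17, where 9 genes have none. Most of these 9 are tissue-restricted isoforms.

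The complexes differed in how their genes were divided, as the plot of genes by complex shows. Of the 38 complex I genes, 24 had a peak in both libraries, 11 in ERG cells alone and 3 in neither. Complex II had 3 genes with a peak in both libraries and 1 in ERG cells alone. Complex III had 5 in both, 3 in ERG cells alone and 2 in neither, and complex V had 14, 3 and 2 in the same order. Complex IV was divided 5, 3 and 9. Most of its 9 genes with none are tissue-restricted isoforms: COX4I2, COX6A2, COX6B2, COX7A1, COX7B2 and COX8C. The complex I assembly factors were divided 3, 5 and 0. These groups are small, and the exact intervals of the share in ERG cells alone overlapped widely. Counted over all genes of a group, they were 24.5 to 91.5% for the assembly factors, 15.4 to 45.9% for complex I and 3.80 to 43.4% for complex IV. The share of all protein-coding genes was 15.6%. Counted over genes with an ERG peak, they were 24.5 to 91.5%, 16.9 to 49.3% and 8.52 to 75.5% in the same order, beside 34.1% of all such genes.

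Complex I is the NADH dehydrogenase. All 7 of its nucleus-encoded core subunits, which carry the redox cofactors or frame the coenzyme Q site, had a gene-end peak in ERG cells, and 5 of them had a peak in Vector cells. NDUFV1, the flavoprotein that takes electrons from NADH, had 31 fragments in ERG cells and 28 in Vector cells, a ratio of 0.767 after scaling by depth. NDUFV2 had 68 fragments in ERG cells and 32 in Vector cells, and NDUFS1 had 72 and 28 in the same order; both carry iron-sulphur clusters. The peak credited to NDUFS1 is held jointly with EEF1B2, which starts beside it on the other strand. NDUFS3 had 38 fragments in ERG cells and 24 in Vector cells. NDUFS7, which holds the last cluster before coenzyme Q, had 29 and 17 in the same order.

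Among the core subunits, NDUFS8 was listed in ERG cells alone. This carrier of iron-sulphur clusters had 48 fragments in ERG cells at chr11:68030704-68031280, and no Vector peak lay within 20138 bp of its record.

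The 31 accessory subunits of complex I have no redox cofactor and stabilise or regulate the enzyme. Of these, 19 had a peak in both libraries, 9 in ERG cells alone and 3 in neither. Listed in ERG cells alone were NDUFB3 with 72 fragments, NDUFC2 and its readthrough gene with 52 at a single peak, NDUFA13 with 44, NDUFA9 and NDUFB2 with 41 each, NDUFB10 with 33, NDUFS4 with 28 and NDUFA12 with 23. NDUFS4 and NDUFA12 sit near the NADH-oxidising tip of the enzyme, NDUFA9 near the coenzyme Q module, and NDUFB2, NDUFB3, NDUFB10 and NDUFC2 in the membrane arm. The NDUFA9 peak is also at an end of AKAP3, the NDUFB3 peak at an end of HYCC2 and the NDUFA13 peak at the start of TSSK6. For NDUFS4 the nearest Vector peak was 1624199 bp away, and for NDUFB10 it was 3119 bp away. The longer record of NDUFC2-KCTD14 has a Vector peak of 34 fragments inside it, away from the ends. That of NDUFC2 had its nearest Vector peak 17177 bp away.

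All 8 complex I assembly factors had a peak in ERG cells. NDUFAF3, NDUFAF5 and NDUFAF8 had peaks in both libraries, and NDUFAF1, NDUFAF2, NDUFAF4, NDUFAF6 and NDUFAF7 in ERG cells alone. NDUFAF3 and NDUFAF4 act together on the module that binds coenzyme Q. NDUFAF3 had 223 fragments in ERG cells and 133 in Vector cells, the highest of the 96 genes in each, and NDUFAF4 had 21 in ERG cells and no listed peak in Vector cells. The NDUFAF3 peak is also at an end of DALRD3, and its summit lay 1389 bp (ERG cells) and 1372 bp (Vector cells) into the gene from the listed start. NDUFAF7, a methyltransferase that acts on a core subunit, had 52 fragments, and NDUFAF2, a late-acting paralogue of NDUFA12, had 17, the fewest of the 80 genes with an ERG peak. NDUFAF1 had 24 fragments. NDUFAF6 had 56 at a peak shared with CCNE2, and it is a long gene with 5 Vector peaks of 28 to 47 fragments inside its record, away from the ends.

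Complex II, the succinate dehydrogenase, links the citric acid cycle to coenzyme Q. SDHC, a membrane anchor, had 71 fragments in ERG cells and 21 in Vector cells. SDHA, the flavoprotein that oxidises succinate, had 43 and 29 in the same order, and SDHD, the other anchor, had 44 and 22. SDHB, the iron-sulphur subunit, had 29 fragments in ERG cells at chr1:17053326-17054047 and no Vector peak within 113503 bp of its record. Of the 4 subunits of this enzyme, SDHB was thus the 1 without a listed Vector peak.

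In complex III, UQCRFS1, the Rieske iron-sulphur protein, had 133 fragments in ERG cells and 54 in Vector cells. CYC1, which carries the haem that reduces cytochrome c, had 92 and 53 in the same order. UQCRC2 had 58 fragments in ERG cells and 20 in Vector cells, and UQCRC1 had 36 and 27; these encode the core proteins on the matrix side. UQCRH, the hinge protein beside cytochrome c, had 163 fragments in ERG cells and 108 in Vector cells at a peak shared with LRRC41. The small subunits UQCRB (47 fragments), UQCR10 (25) and UQCRQ (21) had peaks in ERG cells alone. The UQCR10 peak was among the weakest, at percentile 9.01 of the ERG list by deposited −log10 q-value. It lay 510 bp outside the record on the side of ZMAT5, and the UQCRQ peak is held jointly with GDF9.

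Complex IV is cytochrome c oxidase. COX4I1 and COX5A, regulatory subunits that join the enzyme early in its assembly, had peaks in both libraries, with 52 fragments in ERG cells and 32 in Vector cells for COX4I1, and with 79 and 35 in the same order for COX5A. COX6B1 had 48 and 23, COX7C 26 and 10, and COX8A 79 and 30, again with ERG cells first. COX5B, a zinc-binding subunit on the matrix side whose promoter holds the NRF1 and ETS words, had 41 fragments at chr2:97645437-97646694 in ERG cells and no Vector peak within 15118 bp. COX6C with 50 fragments and COX6A1 with 27 were the other subunits listed in ERG cells alone.

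Complex V had the highest share of genes with a peak in both libraries among the complexes with 10 or more genes, 73.7%. The catalytic head subunits ATP5F1A and ATP5F1B had 41 and 71 fragments in ERG cells and 19 and 35 in Vector cells. ATP5F1C, the rotating shaft, had 79 fragments in ERG cells and 32 in Vector cells. ATP5PF, in the stalk that holds the head, had 156 fragments in ERG cells and 76 in Vector cells. Its peak is held jointly with GABPA, which starts beside it on the other strand and encodes an ETS-family factor known to activate nuclear genes of oxidative phosphorylation. ATP5MG had 59 fragments, ATP5MJ 58 and ATP5F1D 26 in ERG cells and no listed Vector peak; ATP5F1D belongs to the rotor, and ATP5MG and ATP5MJ are small membrane subunits. The ATP5MJ peak had a deposited fold of 1.77, a deposited −log10 q-value of 2.34 and a width of 298 bp, which put it at percentile 2.61 of the ERG list.

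The ring of the ATP synthase is made of a single mature protein encoded by 3 genes, and these differed in where their acetylation lay. ATP5MC1 had 30 fragments in ERG cells and 20 in Vector cells, and ATP5MC3 had 32 and 25 in the same order. ATP5MC2 had no peak within 1 kb of its record ends, but a peak inside the record reached within 21 bp (ERG cells, 49 fragments) and 40 bp (Vector cells, 21 fragments) of its listed start. Its record begins further upstream than that start. It thus had peaks over its promoter window in both libraries although it counts here among the 16 genes with no gene-end peak.

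The 16 genes with no gene-end peak were of several kinds. The 8 tissue-restricted isoforms and gene copies among the 96 were all in this class, in both libraries. They are COX4I2, best known from lung, COX6A2 and COX7A1 of heart and skeletal muscle, COX6B2, COX7B2 and COX8C of testis, and UQCRHL and ATP5MGL, which are copies of UQCRH and ATP5MG. A count of 0 of 8 with a gene-end peak allows a share of up to 37.5%, and 53.8% of all protein-coding genes had none in either library. The nearest ERG peak lay between 2467 bp (ATP5MGL) and 554044 bp (COX7B2) from their records, and the nearest Vector peak between 8709 bp (COX6B2) and 1354176 bp (COX7B2). Their broadly used counterparts COX4I1, COX6A1, COX6B1, COX8A, UQCRH and ATP5MG all had a gene-end peak in ERG cells, and COX4I1, COX6B1, COX8A and UQCRH also in Vector cells. COX7A2 and COX7B, counterparts of COX7A1 and COX7B2, did not.

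Without these 8, 80 of 88 genes (90.9%) had a gene-end peak in ERG cells and 54 (61.4%) in Vector cells. Leaving out genes that all lack a peak can only raise these shares. The shares of all protein-coding genes, 45.8% and 30.5%, had no such genes left out. Of the remaining 8, ATP5MC2 and COX7A2L had peaks over the promoter window that were missed because the record runs further upstream, and the COX7A2L peaks cover the listed start. COX7A2L, which joins complexes III and IV into supercomplexes, had 68 fragments in ERG cells and 35 in Vector cells there. COX7A2 and NDUFA5 had a peak inside the record and away from the listed start. For COX7A2 it held 55 fragments in ERG cells and 25 in Vector cells, and for NDUFA5 71 and 28, at 20025 bp (ERG cells) and 20360 bp (Vector cells) from the nearer record end.

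NDUFA2, NDUFB7, UQCR11 and COX7B had no peak within or near their records in either library. For NDUFA2 the nearest ERG peak was 6185 bp away and the nearest Vector peak 242851 bp away. For NDUFB7 these distances were 46897 and 47670 bp, for UQCR11 4370 and 4420 bp, and for COX7B 3076 and 3151 bp. All 4 encode subunits that are part of the enzymes in most tissues. The window of 1 kb fell in a gap for these genes: of the genes that counted, UQCR10 had its nearest ERG peak farthest away, at 510 bp, and of those that did not, ATP5MGL had the nearest outside its record, at 2467 bp.

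At the 54 genes with peaks in both libraries, the fragments at the summit were compared after dividing by the relative depth of 1.44. The ratio of ERG to Vector had a median of 1.40 (95% interval 1.27 to 1.47 from the order of the values) and ran between 0.767 and 2.36. This interval reflects spread across genes within 1 pair of libraries and cannot serve as a test between the groups. ATP5MF and its readthrough gene enter it with the same peak. Over the 6021 protein-coding genes with a shared gene-end peak the median was 1.49. By the size rule of 1.5-fold, 17 of 54 (31.5%) were higher in ERG cells, against 49.2% of all genes with a shared peak. None of the 54 was lower by that rule, which allows a share of up to 5.56%, against 0.797% of all such genes. The ratio was above 1 at 48 genes and below 1 at 6, and its exact counting interval lay wholly above 1 at 15. The direction rests on the scaling: with relative depth taken from all shared gene-end peaks, the median of all genes is 1 in place of 1.49, the median of these genes was 0.936, and 2 genes were above 1.5-fold and 6 below.

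The highest ratios belonged to genes of different complexes. NDUFB9, a membrane-arm accessory subunit of complex I, had 109 fragments in ERG cells and 32 in Vector cells, a depth-scaled ratio of 2.36 (1.58 to 3.62). SDHC followed with 2.34 (1.42 to 4.01), and NDUFB5, another membrane-arm subunit, had 73 fragments in ERG cells and 23 in Vector cells, a ratio of 2.20 (1.36 to 3.68). UQCRC2 had 2.01 (1.19 to 3.53), and ATP5MK, a small membrane subunit of the ATP synthase, had 72 fragments in ERG cells and 25 in Vector cells, a ratio of 1.99 (1.25 to 3.28). The intervals of these 5 genes overlapped each other, so their order is not resolved. The NDUFB9 interval alone lay above the median of all genes, and its peak is also at an end of TATDN1. The NDUFB5 peak is also at an end of MRPL47. The ATP5MK peak is held jointly with PDCD11, which starts beside it on the other strand.

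At the lower end, NDUFV1 had a ratio of 0.767 (0.445 to 1.33). ATP5MF and its readthrough gene had 56 fragments in ERG cells and 46 in Vector cells at their common peak, a ratio of 0.843 (0.561 to 1.27). ATP5MC3 had 0.887 (0.509 to 1.56), UQCRC1 0.923 (0.545 to 1.58) and NDUFA3, an accessory subunit with 24 fragments in ERG cells and 17 in Vector cells, 0.978 (0.504 to 1.94). These intervals all include 1. The intervals of NDUFV1, ATP5MF and its readthrough gene, NDUFAF3 and UQCRH lay below the median of all genes. For NDUFAF3 the ratio was 1.16 (0.933 to 1.45) and for UQCRH 1.05 (0.815 to 1.35), although these genes had the most fragments of the set in both libraries.

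**Figure D3:**
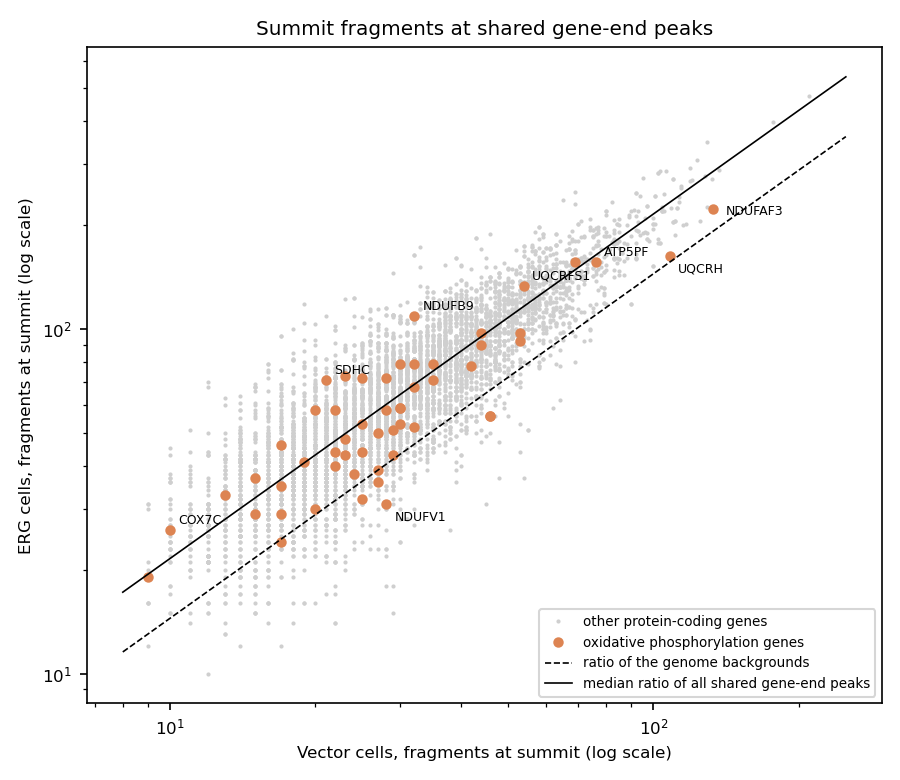
Fragments at the summit in ERG cells (vertical axis, log scale) against Vector cells (horizontal axis, log scale) for the 54 genes with a shared gene-end peak (orange) and other protein-coding genes (grey). The dashed line marks equal levels after scaling by the genome backgrounds, a fragment ratio of 1.44. The solid line marks the median fragment ratio of all genes with a shared peak, 2.15, which is 1.49 after that scaling. NDUFB9 and SDHC lie above both lines and NDUFV1 below both.

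Ratios ran over a range within each enzyme. In complex I the 24 genes with shared peaks ran between 0.767 and 2.36 with a median of 1.42, in complex III the 5 genes ran between 0.923 and 2.01 with a median of 1.20, and in complex IV the 5 genes ran between 1.13 and 1.82 with a median of 1.56. In complex II, SDHA had 1.03 (0.627 to 1.71) and SDHD 1.39 (0.813 to 2.43) beside the 2.34 of SDHC. In the scatter of summit fragments the 54 genes lie within the cloud of other genes.

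How far the acetylated stretch reached was a further measure. Within 1 kb of the gene ends, peaks covered a longer stretch in ERG cells than in Vector cells at 79 of the 80 genes with a gene-end peak, of which 26 have no Vector peak and so could differ in no other way. Of the 54 genes with peaks in both libraries, 53 were longer in ERG cells, and COX4I1 was the exception with 1378 bp in ERG cells and 1471 bp in Vector cells. The median difference, ERG minus Vector, was 445.5 bp (366 to 655 bp), beside 447 bp over the 9251 protein-coding genes with a gene-end peak in either library. Among the 54 alone it was 358 bp (242 to 510 bp), beside 353 bp over the 6049 protein-coding genes with gene-end peaks in both libraries. Among genes with peaks in both libraries the difference was largest at NDUFB6, with 1576 bp in ERG cells and 341 bp in Vector cells. Of the ERG length at NDUFB6, part lies at the far end of the gene, which it shares with TOPORS: the strongest peak there held 83 fragments, against 37 at the peak shared with the Vector library.

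NDUFV3 had 1665 bp in ERG cells and 583 bp in Vector cells, UQCRC2 had 1545 and 483 bp, NDUFS5 had 1352 and 357 bp, and NDUFA1 had 1261 and 319 bp, each with ERG cells first. NDUFS5 combined a gain of 995 bp in length with a summit ratio of 1.22 (0.768 to 1.98), and NDUFV3 a gain of 1082 bp with 1.42 (0.977 to 2.08). At UQCRC2 a gain of 1062 bp stood beside a ratio of 2.01. It was the only gene among both the 5 highest ratios and the 5 largest length differences.

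**Figure D4:**
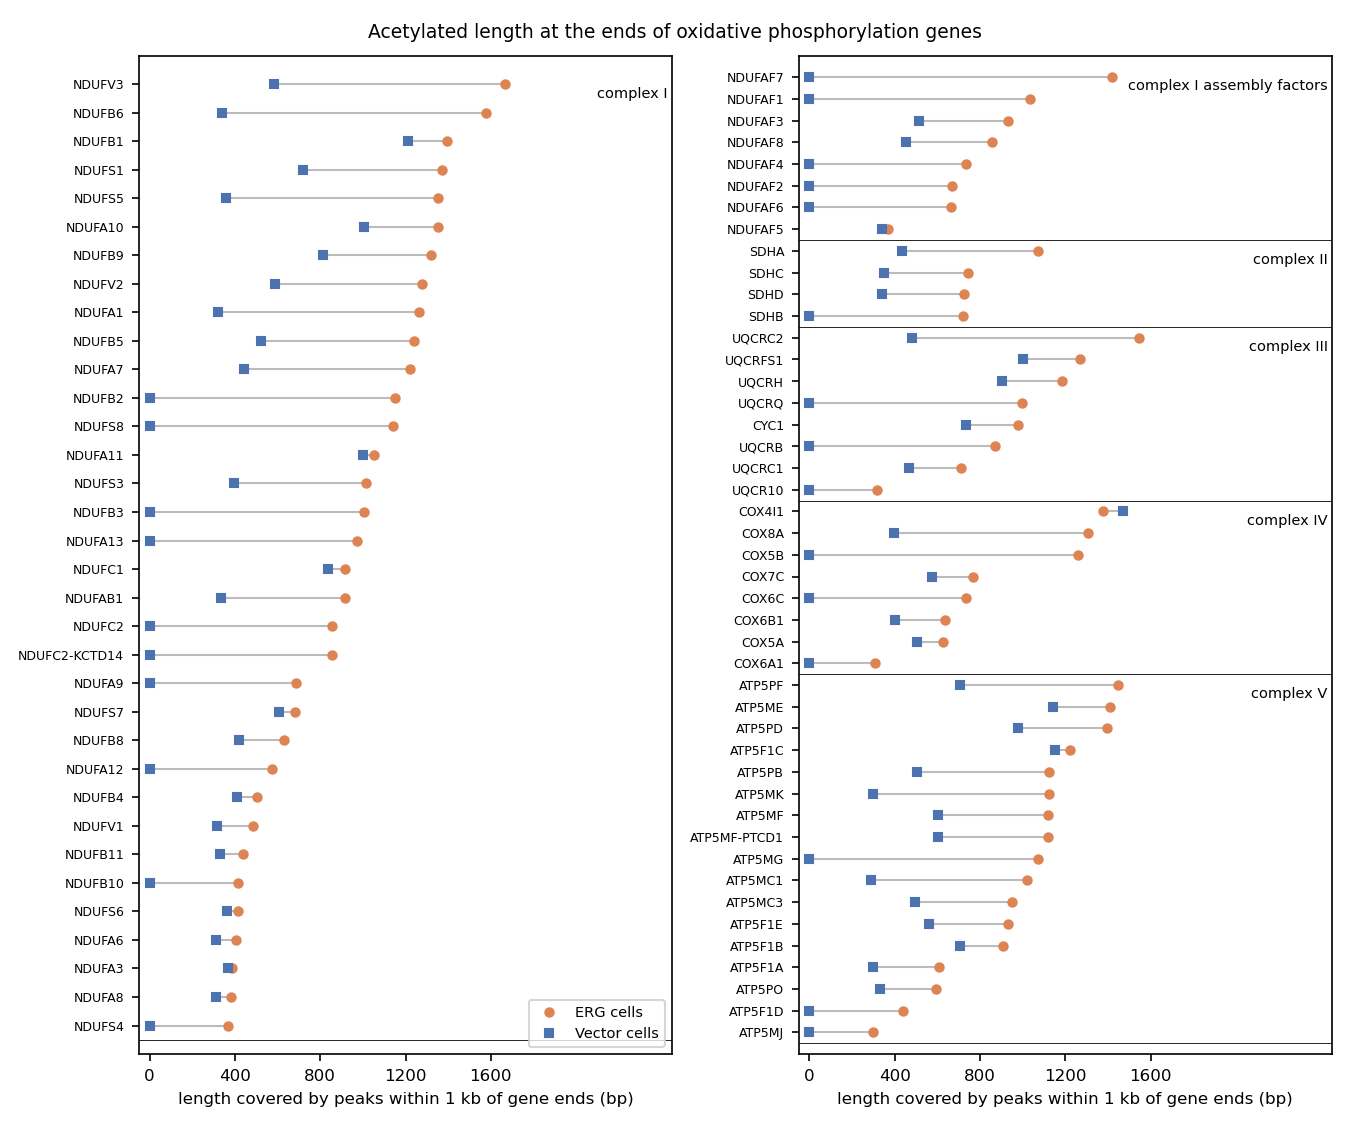
Peak-covered length within 1 kb of the gene ends (horizontal axis, bp) for 79 of the 80 genes with a gene-end peak, grouped by complex, with circles for ERG cells and squares for Vector cells. Circles lie to the right of squares at each gene shown except COX4I1, and squares at 0 mark genes with no Vector peak.

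Within each list the median number of fragments at these peaks was close to that over all genes, while the Vector peaks were narrower. The strongest gene-end peak had a median of 51 fragments and a median width of 923 bp in ERG cells (80 genes), beside 50 fragments and 904 bp over all genes with an ERG peak. In Vector cells the medians were 27.5 fragments and 460.5 bp (54 genes), beside 29 fragments and 572 bp over all genes with a Vector peak. The classes differed more: the 26 genes listed in ERG cells alone had a median of 41 fragments and 735 bp there, beside 30 fragments and 641 bp over all 3131 genes of that class. At the 54 genes with peaks in both libraries the ERG median was 57 fragments, beside 64 over all 6049 such genes.

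Start sites and strands were read for the same 77 genes and for 15842 protein-coding genes. In all 65 of these 77 genes with an ERG gene-end peak, and in all 45 with a Vector one, a peak reached within 1 kb of the start, and at 4 genes an ERG peak also lay within 1 kb of the other end. At NDUFB6 and NDUFS8 more than a single peak was listed, and at the short genes NDUFAF3 and COX8A a single peak reached both ends. The summit usually lay just inside the gene. It was after the start in 44 of 63 genes (69.8%) in ERG cells and 32 of 44 (72.7%) in Vector cells, counting summits within 1 kb of the start. Over all protein-coding genes the same shares were 71.2% in ERG cells and 75.2% in Vector cells. The median position was 192 bp past the start in ERG cells and 243.5 bp in Vector cells, beside 181.5 and 213 bp over all genes. The histogram of summit positions shows a gap between the start and the main group of summits.

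**Figure D5:**
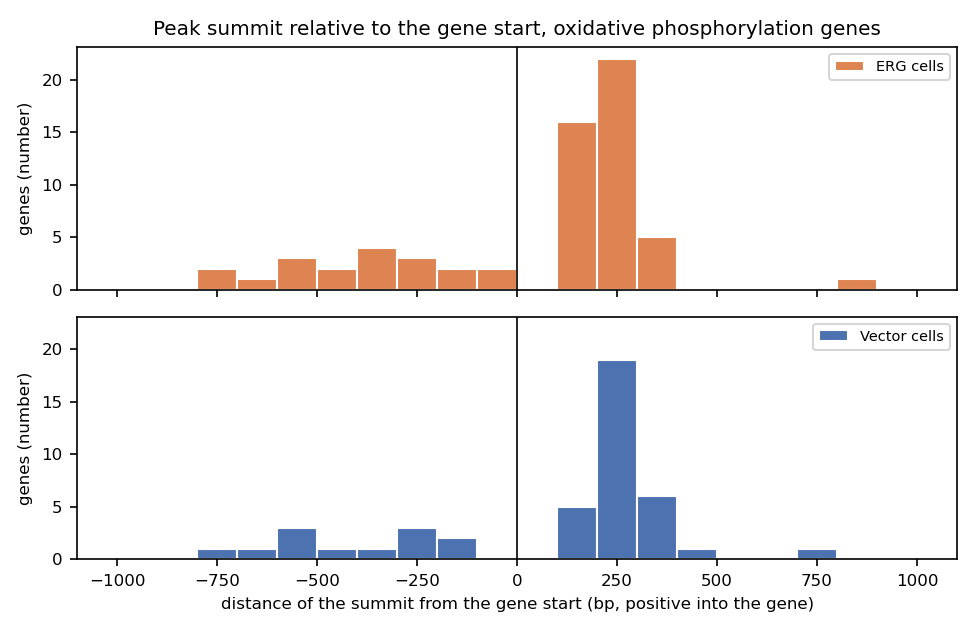
Number of genes (vertical axis) by the distance of the peak summit from the RefSeq gene start (horizontal axis, bp, positive into the gene), with ERG cells in the upper panel (63 genes within 1 kb) and Vector cells in the lower panel (44 genes). In both libraries the main group of summits lies past the start, with medians of 192 and 243.5 bp, and a smaller group lies before it.

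Over the 300 bases from 250 before to 50 after the start, a peak was present in both libraries at 29 of the 77 genes (20.4% of all genes with a listed window), in ERG cells alone at 31 (18.6% of all) and in neither at 17 (60.6% of all). At gene ends 20 of the same 77 genes were in the ERG-alone class. Of the 31, 13 had gene-end peaks in both libraries and a peak over the window in ERG cells alone. COX8A is among them: its ERG peak began at chr11:63974583, before the listed start, and its Vector peak at chr11:63974682, past the window. A summit lay inside the window at 7 genes in ERG cells and 2 in Vector cells.

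Many of these genes share their acetylated region with a neighbour. The gene-end peak also lay within 1 kb of an end of another protein-coding gene at 42 of the 80 genes (52.5%), beside 35.6% of all genes with a gene-end peak. Another gene started within 1 kb on the other strand at 25 of 77 genes (32.5%), beside 12.5% of all genes with a listed start. Of those 25 genes, 18 had peaks in both libraries, 5 in ERG cells alone and 2 in neither. Of the 52 without such a partner, 27 had peaks in both libraries, 15 in ERG cells alone and 10 in neither. At a joint start the peak cannot be credited to either gene. Among the genes described above this holds for ATP5F1A (with HAUS1), ATP5F1C (KIN), SDHA (CCDC127) and COX4I1 (EMC8). It also holds, among others, for NDUFS3 (KBTBD4), NDUFA1 (RNF113A), NDUFAF7 (CEBPZ) and NDUFAF2 (ERCC8).

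The wider pathway was read from 70 further genes for assembly factors, mobile carriers and regulators. Of these, 44 had gene-end peaks in both libraries, 20 in ERG cells alone, 0 in Vector cells alone and 6 in neither. The 20 made up 31.25% of the 64 with an ERG peak, close to the 34.1% of all genes with an ERG peak. The depth-scaled ratio at the 44 shared peaks had a median of 1.51 and ran between 0.626 and 2.82. Over all genes with a shared peak the median was 1.49 and 49.2% were above 1.5-fold. Of the 44, 23 were above 1.5-fold and 3 below 1. No counting intervals are given for the ratios of these further genes, so how far counting error reaches is not shown. SURF1, a complex IV assembly factor, was the lowest with 28 fragments in ERG cells and 31 in Vector cells, the single gene past 1.5-fold in that direction. The others below 1 were SCO2, which delivers copper to complex IV, with 48 fragments in ERG cells and 35 in Vector cells, and COQ5, an enzyme of coenzyme Q synthesis, with 35 and 25 in the same order. The 10 other complex I assembly genes had peaks in both libraries at 4, in ERG cells alone at 5 and in neither at 1 (DMAC1). The 4 complex II assembly genes had 3 in both libraries and SDHAF1 in ERG cells alone, and of the 6 complex III assembly genes 4 had peaks in both libraries while BCS1L and LYRM7 had none. Of 12 genes for cytochrome c and coenzyme Q synthesis, 11 had peaks in both libraries and COQ4 in ERG cells alone. CYCS, cytochrome c itself, had 40 fragments in ERG cells and 23 in Vector cells, a depth-scaled ratio of 1.20. Of 21 complex IV assembly genes, 14 had peaks in both libraries and 6 in ERG cells alone (COX10, COX11, COX16, COX17, PET100 and SCO1, among them haem A synthesis and copper delivery), and COA3 had none. The 5 genes for ATP synthase assembly and regulation had peaks in ERG cells alone at ATP5IF1, ATPAF1 and ATPAF2, in both libraries at DMAC2L and in neither at TMEM70.

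Among the 12 regulators, NRF1 had 88 fragments in ERG cells and 41 in Vector cells, a depth-scaled ratio of 1.49. YY1 had 170 and 78 in the same order, with a ratio of 1.51, and GABPB1, the partner of GABPA, had 185 and 71, with a ratio of 1.80. TFAM, which packages and transcribes mitochondrial DNA, had 1542 bp of covered length in ERG cells and none in Vector cells. POLRMT, the mitochondrial RNA polymerase, TFB1M and PPARGC1B also had peaks in ERG cells alone. With TFAM, these 4 made up 36.4% of the 11 regulators with an ERG peak, close to the 34.1% of all genes with an ERG peak. PPARGC1A, a coactivator that raises mitochondrial gene expression in muscle, brown fat and liver, had none in either library.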

How the data were processed

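H3K27ac chromatin immunoprecipitation was measured in 1 ERG and 1 Vector library of F36P cells. Bowtie2, MACS2 and deepTools were used on the hg38 build, per the submitters' processing notes, which give no versions. Whether peaks were called against an input is not given in these sources. The authors deposited 1 list of 10 columns per library, with a score, a fold (a linear ratio at the summit), a −log10 p-value, a −log10 q-value and a summit position for each peak. Deposited −log10 q-values began at 1.31 for ERG cells and 1.32 for Vector cells, a q-value of 0.05. The score, fold and −log10 values are the authors' own and served to order or select peaks of the same list.

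Fragments at each summit were recovered from the deposited fold (fragments plus 1 over background plus 1) and −log10 p-value (a Poisson tail). They came out whole, within 0.0001, for all 19671 ERG and 9161 Vector peaks. Relative depth was the ratio of the lowest backgrounds. On simulated data, 100% of 2999 ERG and 2995 Vector peaks were recovered. Gene records, starts, strands and promoter windows came from RefSeq (GRCh38.p14). A gene had a peak where any base lay within 1 kb of a record end. Shared peaks overlapped by at least 1 bp. Share intervals are exact Clopper-Pearson, ratio intervals exact conditional binomial, both at 95%. Median intervals, also at 95%, come from the order of the values and reflect spread across genes. MNase-cut fragments without molecular identifiers are not independent molecules, so share and ratio intervals and zero-count limits (3 counts) cover counting error only. Python 3.11.15, numpy 2.4.6, scipy 1.17.1, pandas 2.3.3 and matplotlib 3.10.9 were used.

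Named genes are those listed in ERG cells alone, Vector cells alone or neither, the 5 highest and 5 lowest ratios, the 5 largest length differences, core subunits and tissue-restricted isoforms. Others were named for the strength of their peaks after values were seen. The genes, lists and rules were chosen with earlier results of these data known. Alternatives tried were other windows, score filters, an ERG list of equal length, thinning the ERG library, other relative depths, a stricter overlap, structural subunits alone and leaving out joint peaks. 1 gene is counted in the totals but not reported here by name.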

Additional observations from a re-analysis of the deposited data

How the results depend on the processing

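No paired analysis was possible because each group has 1 library and no test was run. Counts of genes by class stayed within 1.5 times of those reported with windows of 0.5 kb and 2.5 kb, with structural subunits alone and with the ERG library thinned; the 0.5 kb window dropped UQCR10 and the 2.5 kb window added ATP5MGL. Thinning to the Vector background left 25 of the 26 genes listed in ERG cells alone (ATP5MJ was lost). Thinning by the median fragment ratio at shared gene-end peaks, 2.15, chosen after seeing the data, left 24 (UQCR10 was lost too). The shares in ERG cells alone were 31.6% and 30.8% of genes with an ERG peak, beside 33.3% and 30.7% of all genes. With the upper 50% of each list by score, 32 genes had peaks in both libraries and 30 in neither, 7 ratios passed 1.5-fold and the median added length was 674 bp. The share listed in ERG cells alone was then 51.5% of genes with an ERG peak, beside 47.2% of all genes. With no more top-scoring ERG peaks kept than the Vector list holds, 15 genes were listed in ERG cells alone, 4 in Vector cells alone (ATP5MC1, COX6B1, NDUFA6 and NDUFV1) and 27 in neither. These 4 have ERG gene-end peaks that this cut removed from the list. The share listed in ERG cells alone was here 23.1% of genes with an ERG peak, beside 18.6% of all genes. Leaving out genes with joint peaks alone kept 55 genes, with 25 in both libraries, 14 in ERG cells alone and 8 ratios past 1.5-fold. The 0.5 kb window gave a median added length of 307 bp, beside 290 bp over all genes. Taking relative depth from all shared gene-end peaks sets the median of all genes at 1 in place of 1.49 and turned the median of these genes to 0.936, with 2 ratios above 1.5-fold and 6 below. At promoter windows, requiring the summit inside left 2 genes in both libraries, 5 in ERG cells alone and 70 in neither; the score filter left 27 in neither, and the shortened ERG list 27 in neither with 1 in Vector cells alone. For these changes beyond the construction of each alternative, the cause was not tested. A gene without a listed peak may carry acetylation below the threshold, and the shallower Vector library limits what could be listed there.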
